A study of Homo sapiens with 18 samples.

Results

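Transcripts of 9 enzymes that make, salvage or clear deoxynucleotides were followed in oestrogen receptor-positive breast cancer cells treated with CDK4/6 inhibitors. The 9 genes were taken by symbol, as RRM1 and RRM2 (ribonucleotide reductase), TYMS, TK1, DTYMK and DUT (thymidylate enzymes), DCK (a salvage kinase), and DCTPP1 and SAMHD1 (enzymes that clear deoxynucleotides). They are 9 of the 60656 rows of the deposited count table, and all 9 passed the filter on low counts in both cell lines. The lines were CAMA-1 and ZR-75-1, established lines labelled as wild-type parental cells, so that no group carried an engineered allele. Each line received abemaciclib at 500 nM, palbociclib at 500 nM or the solvent DMSO for 5 days, with 3 libraries in each of the 6 groups, described as independent biological replicates. RNA was read by QuantSeq, which sequences messenger RNA near its 3′ end. The comparisons asked how each inhibitor moved these transcripts within a line, whether the inhibitors differed from each other, and whether the lines differed in their response.

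DNA replication needs all 4 deoxynucleoside triphosphates (dNTPs). Ribonucleotide reductase makes deoxynucleotide precursors of them from ribonucleotides. RRM1 is its large catalytic subunit, and RRM2 is the small subunit that carries the radical and is made chiefly in S phase. Thymidylate is made from dUMP by TYMS or salvaged from thymidine by TK1, and DTYMK takes both products onwards to dTTP. DUT and DCTPP1 hydrolyse particular triphosphates, and SAMHD1 degrades dNTPs in general and is best known in cells that are not dividing. CDK4 and CDK6 phosphorylate the retinoblastoma protein, which in its unphosphorylated form holds back E2F factors, and several of these genes are classical E2F targets.

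Promoter sequence was examined because several of these transcripts moved together. RefSeq windows on GRCh38.p14, running from 250 bases before to 50 bases after an annotated start, were found for all 9 genes. Where a gene had several, the window nearest to the canonical GENCODE start was taken. The 250 bases before the start are printed 5′ to 3′ for the 3 genes that fell most with abemaciclib. SAMHD1, which moved far less, is printed too. Capitals mark CCAAT (or ATTGG, the same motif on the other strand) and an E2F motif.
RRM2 (chr2:10122489-10122738, plus strand): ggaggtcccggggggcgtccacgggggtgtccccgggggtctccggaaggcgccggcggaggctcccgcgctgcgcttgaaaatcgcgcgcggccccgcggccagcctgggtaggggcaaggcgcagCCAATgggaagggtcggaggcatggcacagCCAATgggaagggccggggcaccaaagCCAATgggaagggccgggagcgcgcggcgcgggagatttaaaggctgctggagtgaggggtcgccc
TYMS (chr18:657403-657652, plus strand): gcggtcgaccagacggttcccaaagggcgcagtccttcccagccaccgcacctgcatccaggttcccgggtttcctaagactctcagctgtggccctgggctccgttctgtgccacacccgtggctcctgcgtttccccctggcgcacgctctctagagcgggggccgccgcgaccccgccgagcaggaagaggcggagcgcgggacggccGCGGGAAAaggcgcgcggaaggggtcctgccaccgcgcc
TK1 (chr17:78187053-78187302, minus strand): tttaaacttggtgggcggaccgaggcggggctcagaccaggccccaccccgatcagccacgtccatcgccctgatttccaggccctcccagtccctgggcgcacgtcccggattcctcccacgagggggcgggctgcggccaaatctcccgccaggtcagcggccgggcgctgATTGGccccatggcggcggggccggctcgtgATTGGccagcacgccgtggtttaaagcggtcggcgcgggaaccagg
SAMHD1 (chr20:36951709-36951958, minus strand): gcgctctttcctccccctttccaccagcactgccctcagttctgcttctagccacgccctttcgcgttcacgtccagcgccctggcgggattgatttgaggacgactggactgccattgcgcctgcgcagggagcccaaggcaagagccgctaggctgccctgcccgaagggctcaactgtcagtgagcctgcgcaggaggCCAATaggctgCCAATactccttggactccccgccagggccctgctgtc
The RRM2 sequence held 3 copies of CCAAT, which began 123, 93 and 66 bases before the start. TK1 held 2 copies on the other strand, 77 and 46 bases before the start, and SAMHD1 also held 2, at 49 and 38 bases. TYMS had no CCAAT but held 1 E2F motif on the other strand, 39 bases before the start.

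Both strands of the 300-base windows were searched for E2F motifs (TTTGGCGC, TTTGCCGC, TTTCGCGC or TTTCCCGC), for CCAAT, and for the cell cycle homology region motif CHR (TTTGAA or TTCGAA). No matches overlapped each other in the 9 windows. CCAAT was in the windows of 5 of the 9 genes (RRM1, RRM2, TK1, DTYMK and SAMHD1), against 34.6% of all 35116 windows. E2F motifs were in 2 (TYMS and DCK), against 3.31%. The DCK match lay past the start, at base 22, so that only TYMS held one before the start (2.79% of all windows). CHR motifs were in 2 (RRM1 and DTYMK), against 16.4%. DUT and DCTPP1 held none of the 3 motifs. The RRM1 and DCTPP1 windows were placed 114 and 230 bases from the canonical GENCODE start. These matches describe exact letters in the windows, so that sites of other letters were not counted. Binding of any factor was not measured here.

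The 18 libraries held 2308442 to 4146549 counts, and 1 count stood for 0.241 to 0.433 CPM, a count rescaled to a common library size. In both lines all 6 luminal epithelial markers were detected, among them ESR1, GATA3 and KRT8, summing to 3240 to 3940 CPM in CAMA-1 and 2750 to 3640 CPM in ZR-75-1. Of the 3 fibroblast markers only COL1A1 was seen, at 10.6 to 33 CPM, and leukocyte and endothelial markers each summed to at most 2.36 CPM. Mitochondrially encoded genes took 14.8 to 16.6% of counts with DMSO in CAMA-1, and 22.9 to 26.1% with either drug. In ZR-75-1 they took 17.3 to 22.6% with DMSO and 18.5 to 20.5% with the drugs. Values below are CPM scaled by the trimmed mean of M-values (TMM) within a line, and because reads come from transcript ends they are compared between libraries, not between genes.

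With DMSO the 9 genes together took 0.132 to 0.137% of all counts in CAMA-1. Abemaciclib libraries of that line were at 0.0435 to 0.0451% and palbociclib libraries at 0.0541 to 0.0563%. In ZR-75-1 the share was 0.104 to 0.124% with DMSO, 0.0515 to 0.0544% with abemaciclib and 0.0868 to 0.0913% with palbociclib. No drug library overlapped the DMSO libraries of its line, and the abemaciclib libraries were the lowest in both lines. RRM1 (16228 counts over all libraries) and DUT (12554) weigh most in this share. Its total includes the mitochondrially encoded counts.

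**Figure D1:**
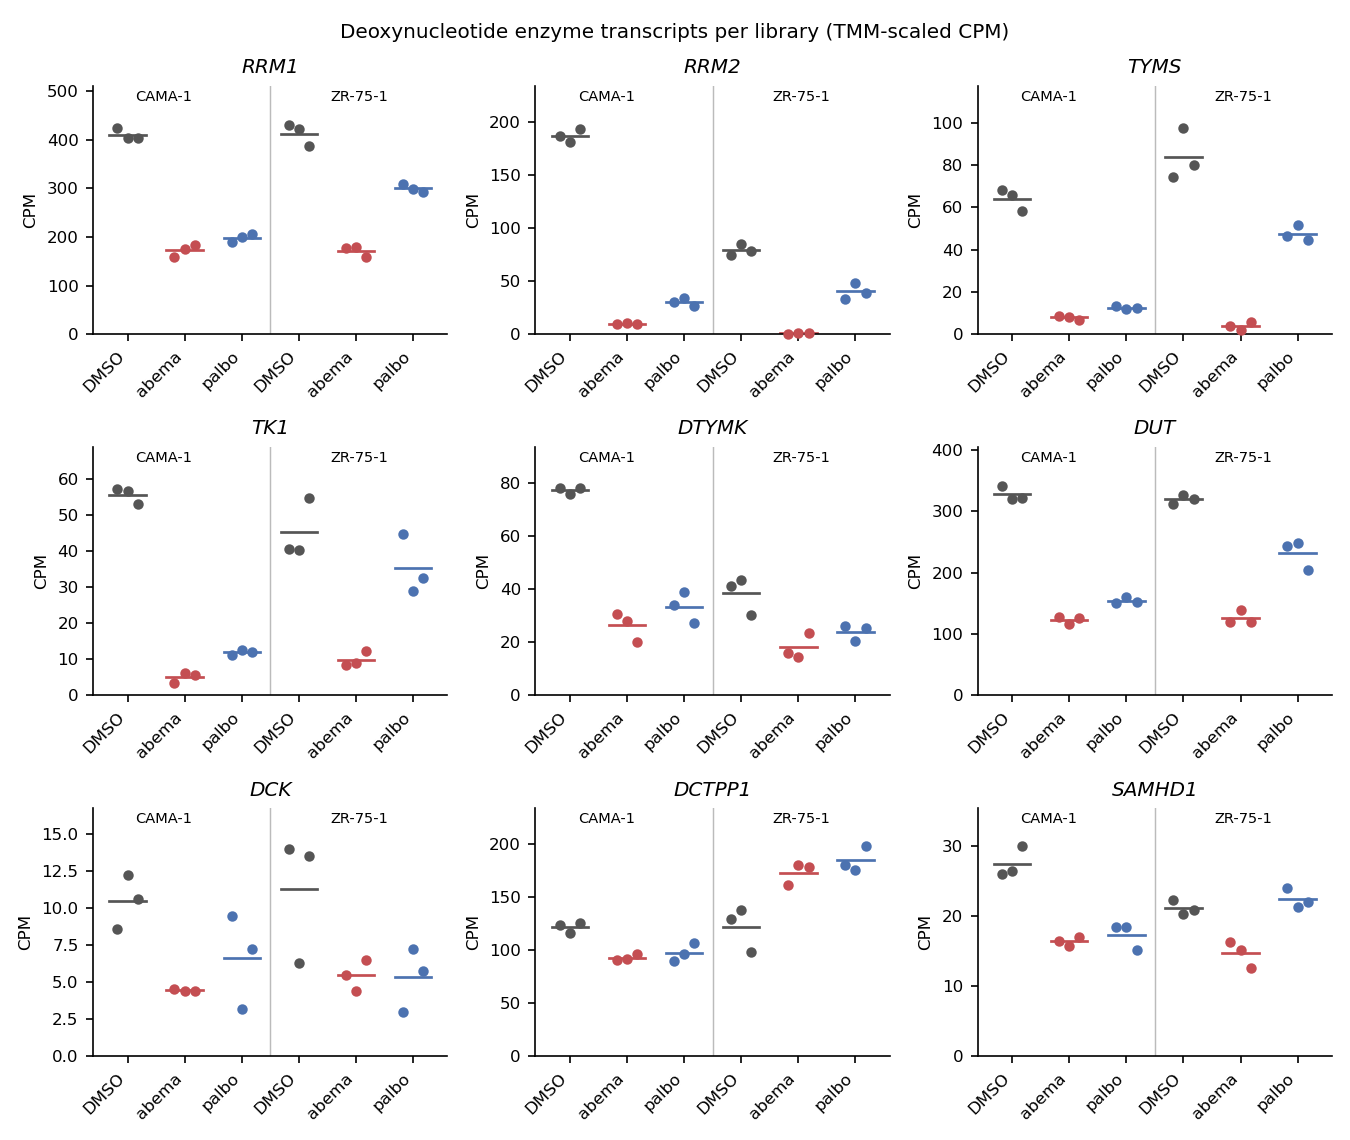
Each panel plots the TMM-scaled CPM of 1 gene on a linear axis from 0, with a point for each of the 3 libraries of a group and a line at the group mean (grey DMSO, red abemaciclib, blue palbociclib). RRM2 sits between 181 and 194 CPM with DMSO in CAMA-1 and between 0.644 and 1.53 CPM with abemaciclib in ZR-75-1, whereas DCTPP1 is lower with the drugs in CAMA-1 and higher in ZR-75-1.

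In CAMA-1, abemaciclib lowered all 9 transcripts (edgeR's quasi-likelihood test, with a call at p under 0.05 after adjustment over all tested genes), where 20.1% of the 11053 tested genes were called lower and 20.3% higher. Palbociclib lowered 8 of the 9 in that line and raised 0, against backgrounds of 18.7% lower and 18.4% higher; DCK was the exception. In ZR-75-1, abemaciclib lowered 8 and raised 1, DCTPP1, where 18.3% of 11017 genes were called lower and 17.9% higher. Palbociclib lowered 6 and raised DCTPP1 there, against 13.4% and 14.5%, and left TK1 and SAMHD1 uncalled. The median log2 fold change over the 9 genes in CAMA-1 was −1.40 with abemaciclib and −1.08 with palbociclib. In ZR-75-1 it was −1.27 and −0.46. Over all tested genes it was between −0.01 and 0.01 in these comparisons. The abemaciclib and palbociclib comparisons of a line share their DMSO libraries. Scaling by library totals alone moved the median of all genes in CAMA-1 by −0.13 with abemaciclib and −0.10 with palbociclib, and the higher share of called genes from 50.3% to 35.9% and from 49.5% to 36.4%. It changed no call on the 9 genes against DMSO.

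**Figure D2:**
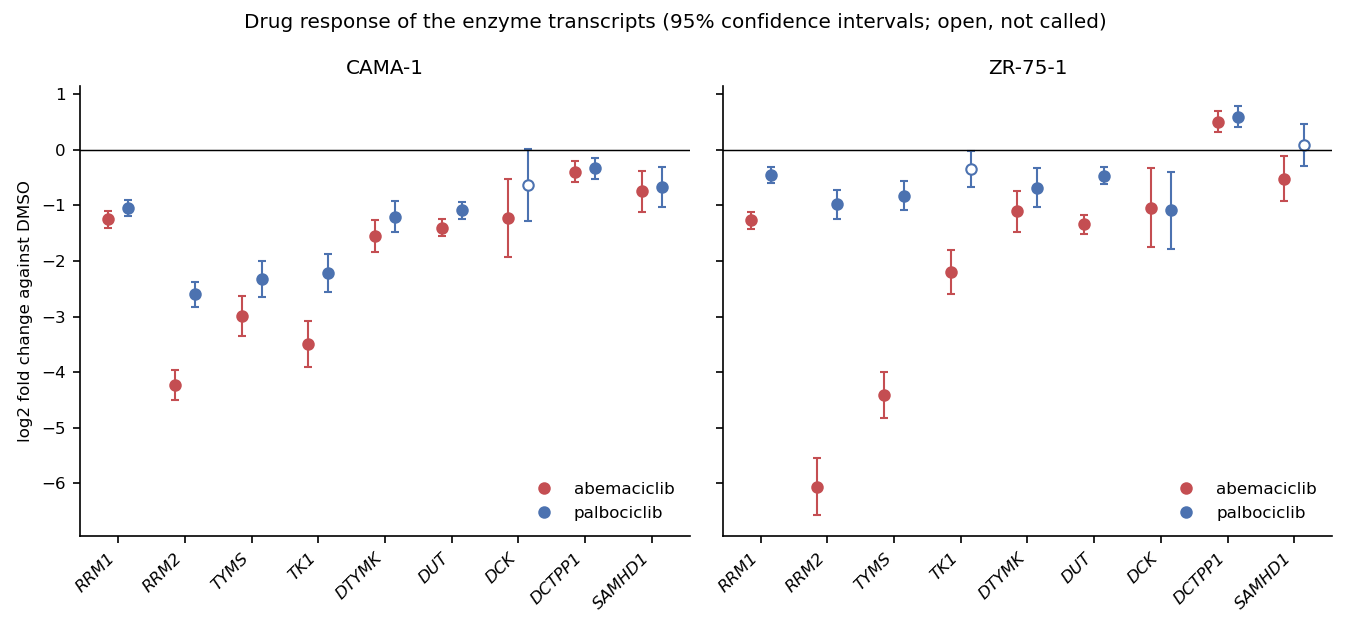
The log2 fold change against DMSO of each of the 9 genes is plotted for abemaciclib (red) and palbociclib (blue) in CAMA-1 (left) and ZR-75-1 (right), with 95% confidence intervals and open symbols for values not called. The values run from −6.06 for RRM2 with abemaciclib to 0.60 for DCTPP1 with palbociclib, both in ZR-75-1.

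RRM2 had the largest fall of the 9 with each drug in each line, apart from palbociclib in ZR-75-1, where DCK had a more negative but less certain estimate. RRM2 (ENSG00000171848.15) lies on chromosome 2 from 10120698 to 10211725 on GRCh38 (GENCODE release 44, as for the genes below), on the plus strand. In CAMA-1 its DMSO libraries held 187, 181 and 194 CPM, its abemaciclib libraries 9.57, 10.5 and 9.80 CPM, and its palbociclib libraries 30.9, 34.3 and 26.9 CPM. The 3 groups did not overlap, and abemaciclib was the lowest. Abemaciclib lowered it 18.9-fold (log2 fold change −4.24, SE 0.13, adjusted p = 2.1e-27) and palbociclib 6.07-fold (−2.60, SE 0.11, adjusted p = 6.5e-23). With DMSO, ZR-75-1 libraries held 74.7, 85.3 and 78.8 CPM of RRM2, and with palbociclib 33.6, 48.7 and 39.4 CPM. With abemaciclib the libraries of that line held 2, 4 and 4 counts, against 234, 285 and 234 counts with DMSO. The groups again did not overlap, and in the abemaciclib group the transcript was close to the limit of detection. Summed over the group, 10 counts stood against 753, which is 69.2-fold lower relative to library totals, with an exact 95% interval of 37.4 to 145 that covers counting error only. The fitted log2 fold changes in ZR-75-1 were −6.06 (SE 0.26, adjusted p = 1.9e-27) with abemaciclib and −0.98 (SE 0.13, adjusted p = 4.1e-08) with palbociclib.

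RRM1, the large subunit, fell by less. RRM1 (ENSG00000167325.15) lies on chromosome 11 from 4094707 to 4138932, on the plus strand. In CAMA-1 it held 423, 403 and 403 CPM with DMSO, 159, 176 and 183 CPM with abemaciclib, and 190, 199 and 206 CPM with palbociclib. The 3 groups did not overlap, with abemaciclib lowest and DMSO highest. The falls were 2.38-fold (log2 fold change −1.25, SE 0.07, adjusted p = 8.5e-18) and 2.07-fold (−1.05, SE 0.07, adjusted p = 1.5e-15). Values in ZR-75-1 were 430, 421 and 386 CPM in the DMSO libraries, 177, 179 and 158 CPM in the abemaciclib libraries, and 308, 298 and 293 CPM in the palbociclib libraries, with no overlap between groups. Abemaciclib gave a fall of 2.41-fold there (−1.27, SE 0.08, adjusted p = 1e-20), and palbociclib one of 1.38-fold (−0.46, SE 0.07, adjusted p = 8.7e-07).

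The subunits of the reductase changed unequally within a library. In CAMA-1 there were 44.3, 44.9 and 48.1 RRM2 counts per 100 RRM1 counts with DMSO. Abemaciclib libraries had 6.04, 6.00 and 5.35, and palbociclib libraries 16.3, 17.2 and 13.1. The same quantity in ZR-75-1 was 17.4, 20.3 and 20.4 with DMSO, 0.364, 0.753 and 0.969 with abemaciclib, and 10.9, 16.4 and 13.4 with palbociclib. Each drug group lay wholly below the DMSO group of its line, and abemaciclib wholly below palbociclib. With 0.5 added to each count, the log2 ratio with abemaciclib dropped by 2.96 in CAMA-1 and dropped by 4.69 in ZR-75-1, and with palbociclib it dropped by 1.56 and by 0.53. Exact permutation tests, two-sided, returned p = 0.1 for each of these 4 comparisons and for abemaciclib against palbociclib in either line, which is the smallest value that 3 against 3 libraries allow, so that this design could not pass 0.05.

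RRM2B encodes an alternative small subunit that supports dNTP supply outside S phase and is a target of p53. It held 6.71 to 9.10 CPM with DMSO in ZR-75-1, 14.8 to 18.2 CPM with abemaciclib and 12.9 to 22.9 CPM with palbociclib, with no overlap between drug and DMSO libraries. Abemaciclib raised it 1.98-fold (log2 fold change 0.99, adjusted p = 0.0019) and palbociclib by 1.16 on the log2 scale (adjusted p = 0.00027). In CAMA-1 it held 7.94 to 16.0 CPM with DMSO, 11.4 to 19.3 CPM with abemaciclib and 11.7 to 13.5 CPM with palbociclib. The CAMA-1 values of 0.46 (adjusted p = 0.15) and 0.15 (adjusted p = 0.7) were not called. When the responses of the lines were tested against each other over all 18 libraries, RRM2B was not called with abemaciclib. It was called with palbociclib, at 0.98 higher in ZR-75-1 (SE 0.37, adjusted p = 0.048). That call was not repeated with DESeq2 or with single libraries left out. The CAMA-1 DMSO libraries were uneven, at 7.94, 16.0 and 9.70 CPM of RRM2B. Per 100 RRM2 counts there were 8.97 to 11.5 RRM2B counts with DMSO in ZR-75-1 and 975 to 2300 with abemaciclib, the latter resting on 2 to 4 RRM2 counts in a library. In CAMA-1 there were 4.24 to 8.86 with DMSO, 108 to 197 with abemaciclib and 34.5 to 50 with palbociclib. RRM2B reads thus outnumbered RRM2 reads in all 6 abemaciclib libraries and in 0 of the other 12. In CAMA-1 abemaciclib replicate 2 the counts were close to even, at 26 against 24. Because reads come from transcript ends, this does not compare the amounts of the RNAs. The log2 ratio rose by 4.67 and 2.80 in CAMA-1 and by 6.94 and 2.10 in ZR-75-1 (exact permutation p = 0.1 for each, again the smallest possible).

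**Figure D3:**
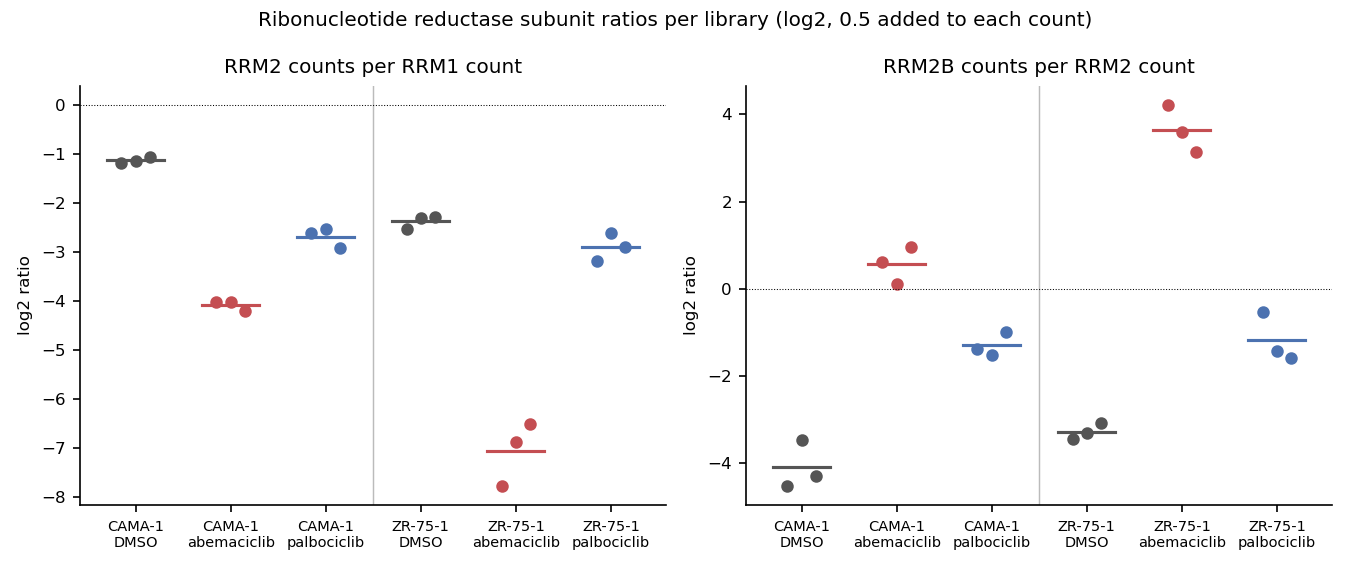
The log2 ratio of RRM2 to RRM1 counts (left) and of RRM2B to RRM2 counts (right) is plotted for each of the 18 libraries, with 0.5 added to each count and a line at the group mean. On the left the ZR-75-1 abemaciclib libraries are lowest, at −7.78 to −6.52, and on the right only abemaciclib libraries lie above 0.

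TYMS, which methylates dUMP to dTMP, fell with both drugs in both lines. TYMS (ENSG00000176890.16) lies on chromosome 18 from 657653 to 673578, on the plus strand. In CAMA-1 it held 68.2, 65.9 and 58.2 CPM with DMSO, 8.78, 8.34 and 6.96 CPM with abemaciclib, and 13.4, 12.1 and 12.4 CPM with palbociclib. No groups overlapped, and the falls were 7.91-fold (log2 fold change −2.98, SE 0.18, adjusted p = 7.3e-18) and 5.02-fold (−2.33, SE 0.16, adjusted p = 9.3e-16). In ZR-75-1 it held 74.4, 97.3 and 80.2 CPM with DMSO, 4.18, 2.02 and 5.75 CPM with abemaciclib, and 46.4, 51.6 and 44.8 CPM with palbociclib. The abemaciclib libraries of that line held 6 to 15 counts, and all lay far below the rest. The falls were 21.2-fold (−4.41, SE 0.20, adjusted p = 1.2e-25) and 1.77-fold (−0.82, SE 0.13, adjusted p = 1.2e-06).

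The 3′ end of TYMS lies within ENOSF1, a gene on the opposite strand, and the sources used here do not state whether reads were counted by strand. ENOSF1 held 1117 counts over all libraries against 2161 for TYMS and was not called against DMSO, with log2 fold changes of −0.43 to 0.30. TYMSOS, antisense to the start of TYMS, held 21 to 34 counts in each DMSO library and 0 to 3 in each abemaciclib library of either line.

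TK1, the cytosolic thymidine kinase that salvages thymidine, fell in both lines with abemaciclib, but with palbociclib it was called in CAMA-1 only. TK1 (ENSG00000167900.12) lies on chromosome 17 from 78174091 to 78187233, on the minus strand. In CAMA-1 its DMSO libraries held 57.3, 56.8 and 53.2 CPM, its abemaciclib libraries 3.46, 6.15 and 5.69 CPM, and its palbociclib libraries 11.2, 12.7 and 12.1 CPM. The groups were apart, with falls of 11.2-fold (log2 fold change −3.49, SE 0.21, adjusted p = 6e-18) and 4.65-fold (−2.22, SE 0.17, adjusted p = 3.6e-14). With DMSO, ZR-75-1 libraries held 40.6, 40.4 and 54.9 CPM of TK1, and with abemaciclib 8.37, 9.09 and 12.3 CPM, a fall of 4.59-fold (−2.20, SE 0.20, adjusted p = 1.2e-13). The palbociclib libraries of that line held 44.8, 28.9 and 32.7 CPM and overlapped the DMSO libraries. That value was not called (−0.34, 95% interval −0.66 to −0.02, adjusted p = 0.11); without palbociclib replicate 1 it was −0.55 (adjusted p = 0.015). AFMID, which begins 125 bases away on the opposite strand, was not called in CAMA-1 and rose in ZR-75-1 (0.47, adjusted p = 0.027, and 0.78, adjusted p = 0.00021).

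DTYMK, which phosphorylates dTMP, and DUT, which hydrolyses dUTP to dUMP, fell with both drugs in both lines. DTYMK (ENSG00000168393.13, chromosome 2 from 241675747 to 241686944, minus strand) held 75.6 to 78.0 CPM with DMSO in CAMA-1, 20.2 to 30.6 CPM with abemaciclib and 27.3 to 38.9 CPM with palbociclib. ZR-75-1 libraries held 30.3 to 43.4, 14.5 to 23.4 and 20.4 to 25.9 CPM in the same order. The drug libraries overlapped each other but not the DMSO libraries. In CAMA-1 abemaciclib lowered it 2.93-fold (log2 fold change −1.55, adjusted p = 4.6e-12) and palbociclib also lowered it (−1.20, adjusted p = 1.1e-09), each with an SE of 0.14. The ZR-75-1 falls were 2.15-fold (−1.11, SE 0.19, adjusted p = 2.3e-06) and 1.60-fold (−0.68, SE 0.17, adjusted p = 0.0019).

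DUT (ENSG00000128951.14, chromosome 15 from 48331011 to 48343373, plus strand) held 341, 321 and 322 CPM with DMSO in CAMA-1, 128, 117 and 126 CPM with abemaciclib, and 150, 161 and 153 CPM with palbociclib. In ZR-75-1 it held 312, 327 and 321 CPM, then 120, 139 and 120 CPM, then 244, 248 and 204 CPM. All groups within a line were apart. The falls were 2.64-fold (log2 fold change −1.40, SE 0.08, adjusted p = 8.7e-19) and 2.12-fold (−1.08, SE 0.08, adjusted p = 1.5e-15) in CAMA-1, and 2.53-fold (−1.34, SE 0.08, adjusted p = 6.1e-20) and 1.38-fold (−0.46, SE 0.08, adjusted p = 4.1e-06) in ZR-75-1. DUT and RRM1 were the closest pair among the 9, with a root mean square difference of 0.09 over the 4 log2 fold changes against DMSO. Rows for DUT pseudogenes held 44 counts in all, 0.35% of the DUT total.

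DCK, which phosphorylates deoxycytidine and other deoxynucleosides for salvage, was the least abundantly read of the 9. DCK (ENSG00000156136.10, chromosome 4 from 70992538 to 71030914, plus strand) held 26, 35 and 45 counts with DMSO in CAMA-1, 17, 10 and 14 with abemaciclib, and 39, 11 and 21 with palbociclib. ZR-75-1 libraries held 44, 21 and 40 counts, then 17, 13 and 17, then 11, 22 and 20. At the CPM scale only abemaciclib in CAMA-1 was apart from DMSO, at 4.39 to 4.52 against 8.60 to 12.2 CPM. That fall was 2.34-fold (log2 fold change −1.23, SE 0.35, adjusted p = 0.0043). In ZR-75-1 DCK was called lower with abemaciclib (−1.04, SE 0.35, adjusted p = 0.017) and palbociclib (−1.09, SE 0.35, adjusted p = 0.014), although 1 DMSO library overlapped the drug libraries. Both ZR-75-1 calls were lost with DESeq2 (adjusted p = 0.076 and 0.067). They were also lost without DMSO replicate 1 (−0.84, adjusted p = 0.12, and −0.90, adjusted p = 0.11) or DMSO replicate 3 (−0.89, adjusted p = 0.08, and −0.95, adjusted p = 0.072). The abemaciclib call was lost too without abemaciclib replicate 2 (−0.90, adjusted p = 0.076), and the palbociclib call without palbociclib replicate 1 (−0.79, adjusted p = 0.1). With palbociclib in CAMA-1 the value was −0.64 (adjusted p = 0.12), and it was −1.03 (adjusted p = 0.034) without palbociclib replicate 1.

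DCTPP1, a pyrophosphatase that removes dCTP and its modified forms, moved in opposite directions in the lines. DCTPP1 (ENSG00000179958.9) lies on chromosome 16 from 30423615 to 30430030, on the minus strand. In CAMA-1 it held 124, 116 and 126 CPM with DMSO, 91.0, 91.3 and 96.7 CPM with abemaciclib, and 89.6, 96.3 and 107 CPM with palbociclib. All 6 drug libraries lay below the DMSO libraries, with falls of 1.31-fold for abemaciclib (log2 fold change −0.40, adjusted p = 0.00072) and 1.26-fold for palbociclib (−0.33, adjusted p = 0.0039), at an SE of 0.09. The palbociclib call was lost without palbociclib replicate 1 (−0.27, adjusted p = 0.05). In ZR-75-1 it held 129, 138 and 98.4 CPM with DMSO, 161, 180 and 178 CPM with abemaciclib, and 180, 176 and 198 CPM with palbociclib. There all 6 drug libraries lay above the DMSO libraries, 1.42-fold higher with abemaciclib (log2 fold change 0.50, adjusted p = 1.8e-05) and 1.51-fold higher with palbociclib (0.60, adjusted p = 8.3e-07), again at an SE of 0.09. These directions were the same under all 3 other scalings tried. The gene lies inside ZNF771, which is on the opposite strand, held 546 counts over all libraries against 7652 for DCTPP1, and was not called against DMSO in either line.

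SAMHD1, the dNTP triphosphohydrolase, fell modestly. SAMHD1 (ENSG00000101347.10) lies on chromosome 20 from 36890229 to 36951893, on the minus strand. In CAMA-1 it held 26.1, 26.5 and 30.0 CPM with DMSO, 16.5, 15.8 and 17.1 CPM with abemaciclib, and 18.5, 18.5 and 15.2 CPM with palbociclib. Both drug groups lay below DMSO, 1.68-fold for abemaciclib (log2 fold change −0.75, adjusted p = 0.001) and 1.58-fold for palbociclib (−0.66, adjusted p = 0.0028), each with an SE of 0.18. ZR-75-1 libraries held 22.4, 20.4 and 20.9 CPM with DMSO, 16.4, 15.2 and 12.7 CPM with abemaciclib, and 24.0, 21.4 and 22.1 CPM with palbociclib. The abemaciclib value was called (−0.52, SE 0.20, adjusted p = 0.04), and the palbociclib value was not (0.09, 95% interval −0.29 to 0.46, adjusted p = 0.78). The ZR-75-1 abemaciclib call was lost with DESeq2 (−0.51, adjusted p = 0.13), without the filter on low counts (−0.50, adjusted p = 0.096), and in 5 of 6 fits that each left out a library. In those 5 fits the values were −0.47 (adjusted p = 0.11), −0.55 (adjusted p = 0.058) and −0.52 (adjusted p = 0.069) without DMSO replicate 1, 2 or 3, and −0.53 (adjusted p = 0.078) and −0.42 (adjusted p = 0.15) without abemaciclib replicate 2 or 3.

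Abemaciclib and palbociclib were then compared directly at 500 nM and 5 days, in 18 comparisons (9 genes in 2 lines), with p-values adjusted over all tested genes. In ZR-75-1, abemaciclib left 6 of the 9 lower than palbociclib and 0 higher, where 7.94% of tested genes were called lower and 5.23% higher. RRM2 was 33.8-fold lower (log2 difference −5.08, SE 0.28, adjusted p = 1.9e-21) and TYMS 12.0-fold lower (−3.59, SE 0.22, adjusted p = 9.4e-20). ENOSF1, opposite TYMS, was also lower (−0.55, adjusted p = 0.036). TK1 differed by −1.86 (SE 0.20, adjusted p = 2.6e-10), DUT by −0.88 (SE 0.09, adjusted p = 4.7e-12) and RRM1 by −0.81 (SE 0.08, adjusted p = 2.5e-12). SAMHD1 differed by −0.60 (adjusted p = 0.034), a call lost with DESeq2 (adjusted p = 0.13), without the filter on low counts (adjusted p = 0.068), and in each fit that left out a library of either group (−0.68 to −0.50). The differences for DTYMK (−0.43, 95% interval −0.82 to −0.04), DCK (0.05, −0.73 to 0.82) and DCTPP1 (−0.09, −0.28 to 0.09) were not called.

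In CAMA-1, abemaciclib left 3 of the 9 lower than palbociclib and 0 higher, where 1.53% of tested genes were called lower and 0.796% higher. RRM2 was 3.11-fold lower (−1.64, SE 0.17, adjusted p = 2.5e-09), and TK1 was 2.42-fold lower (−1.27, SE 0.25, adjusted p = 0.0016). DUT differed by −0.32 (SE 0.08, adjusted p = 0.021), a call lost in 5 of 6 fits that each left out a library: −0.28 (adjusted p = 0.14) and −0.33 (adjusted p = 0.064) without abemaciclib replicate 2 or 3, and −0.34 (adjusted p = 0.058), −0.29 (adjusted p = 0.11) and −0.32 (adjusted p = 0.057) without palbociclib replicate 1, 2 or 3. TYMS was lower in every abemaciclib library than in any palbociclib library, but its difference of −0.66 (95% interval −1.10 to −0.21, adjusted p = 0.12) was not called. The other differences ran from −0.59 for DCK (95% interval −1.33 to 0.16) to −0.06 for DCTPP1 (−0.26 to 0.13), with RRM1 at −0.20 (−0.36 to −0.05).

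The response of the lines was compared by an interaction term over all 18 libraries, and each difference is the ZR-75-1 log2 fold change less the CAMA-1 one. For palbociclib, 7 of the 9 genes differed, each with the higher value in ZR-75-1, and 0 with the lower, where 10.0% of 11987 tested genes were called higher and 10.3% lower. The differences were 1.85 for TK1 (SE 0.24, adjusted p = 1.8e-08), 1.59 for RRM2 (SE 0.17, adjusted p = 4.5e-11) and 1.48 for TYMS (SE 0.21, adjusted p = 1.6e-07), so that these transcripts were lowered less in ZR-75-1, where TK1 was not called. DCTPP1 (0.90, adjusted p = 4.2e-07), DUT (0.59, adjusted p = 3.6e-05) and RRM1 (0.56, adjusted p = 2.2e-05) also differed. SAMHD1 differed by 0.72 (adjusted p = 0.035), a call lost without the filter on low counts (adjusted p = 0.1) and in 5 fits that each left out a library, with values of 0.68 (adjusted p = 0.083) and 0.68 (adjusted p = 0.066) without CAMA-1 DMSO or palbociclib replicate 3, 0.73 (adjusted p = 0.05) and 0.71 (adjusted p = 0.062) without ZR-75-1 DMSO replicate 2 or 3, and 0.68 (adjusted p = 0.077) without ZR-75-1 palbociclib replicate 1. DTYMK (0.49, 95% interval 0.05 to 0.94, adjusted p = 0.11) and DCK (−0.48, −1.45 to 0.49, adjusted p = 0.55) were not called. DTYMK was called without CAMA-1 palbociclib replicate 2 (0.65, adjusted p = 0.048) and under library totals alone (0.62, adjusted p = 0.041).

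For abemaciclib the lines differed in both directions, with 2 of the 9 genes lower in ZR-75-1 and 2 higher, where 10.0% of tested genes were called lower and 8.19% higher. RRM2 (−1.85, SE 0.41, adjusted p = 0.00053) and TYMS (−1.45, SE 0.33, adjusted p = 0.00065) fell further in ZR-75-1. TK1 fell further in CAMA-1 (1.27, SE 0.33, adjusted p = 0.0031), and DCTPP1 fell in CAMA-1 and rose in ZR-75-1 (0.87, SE 0.14, adjusted p = 1.3e-06). RRM2 and TYMS thus had the larger fall in ZR-75-1 with abemaciclib and in CAMA-1 with palbociclib, whereas TK1 had the larger fall in CAMA-1 with both. The differences for RRM1 (−0.04, 95% interval −0.25 to 0.17) and DUT (0.04, −0.20 to 0.27) were not called. Scaling by library totals alone shifted the median difference of all genes by 0.15 with abemaciclib and 0.13 with palbociclib, and moved the higher share of called genes from 44.9% to 65.9% and from 49.3% to 67.6%. Under it, 4 and 8 of the 9 genes were called.

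**Figure D4:**
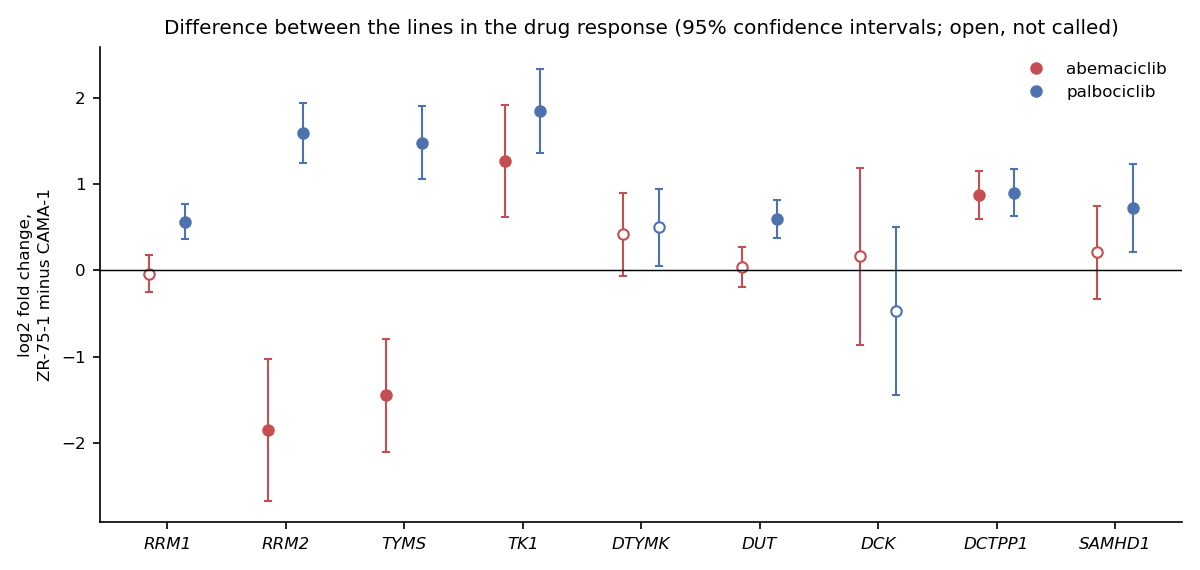
For each gene the difference between the lines in the log2 fold change against DMSO (ZR-75-1 minus CAMA-1) is plotted for abemaciclib (red) and palbociclib (blue), with 95% confidence intervals and open symbols for values not called. RRM2 lies at −1.85 with abemaciclib and at 1.59 with palbociclib, and TYMS likewise changes side, whereas TK1 and DCTPP1 lie above 0 with both.

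Without drug the lines differed for 3 of the 9 genes, where 29.8% of 11987 tested genes were called lower in ZR-75-1 and 31.5% higher. On the scale shared by both lines, RRM2 was at 81.3 ± 5.43 CPM in ZR-75-1 and 180 ± 7.41 CPM in CAMA-1 (SD, n = 3), with no overlap and a log2 difference of −1.15 (SE 0.11, adjusted p = 9.8e-15). DTYMK was also lower in ZR-75-1 (39.1 ± 7.15 against 74.3 ± 1.64 CPM, −0.92, SE 0.15, adjusted p = 1.7e-07). TYMS was higher (85.8 ± 12.1 against 61.7 ± 4.77 CPM, 0.48, SE 0.13, adjusted p = 0.00094), a call lost without ZR-75-1 DMSO replicate 2 (0.31, adjusted p = 0.065) and under a replicate block (0.28, adjusted p = 0.22). ENOSF1 was higher in ZR-75-1 too (0.58, adjusted p = 0.012). The other 6 genes had differences between −0.30 (SAMHD1) and 0.18 (DCK) and were not called. Scaling by library totals alone shifted the median of all genes by −0.16 and called 5, with TK1 (−0.38, adjusted p = 0.027) and SAMHD1 (−0.46, adjusted p = 0.023) added. Of 58 other genes of nucleotide metabolism tested, 16 were lower in ZR-75-1 and 18 higher. TYMP, a phosphorylase that breaks thymidine down, was higher (2.69, SE 0.37, adjusted p = 5e-09), and the nucleoside transporter gene SLC29A1 was lower (−2.58, SE 0.11, adjusted p = 1.2e-29).

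Other genes of nucleotide metabolism were counted from a list of 63, of which 55 were tested in CAMA-1 and 58 in ZR-75-1. In CAMA-1, 20 were lower and 5 higher with abemaciclib (20.1% and 20.3% of all tested genes), and 20 and 4 with palbociclib (18.7% and 18.4%). The ZR-75-1 counts were 14 lower and 12 higher under abemaciclib (18.3% and 17.9% of all tested genes), and 7 lower and 9 higher under palbociclib (13.4% and 14.5%), so that the palbociclib counts lie near the share of all genes. Over the list the log2 fold change had medians of −0.21, −0.18, −0.07 and 0.00 in that order. These lie closer to 0 than the medians of the 9 enzymes, and no test was made of that difference.

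Of 8 folate genes that feed thymidylate synthesis, abemaciclib lowered 6 in CAMA-1 and 5 in ZR-75-1, where it raised 1 (20.1% and 18.3% of all tested genes were lower). Palbociclib lowered 6 and 4, with 1 raised in ZR-75-1 (18.7% and 13.4% were lower). Of all genes tested in ZR-75-1, 17.9% were higher with abemaciclib and 14.5% with palbociclib, so that 1 of 8 is not above these shares. MTHFD1L, a mitochondrial enzyme of the folate cycle, fell in all 4 comparisons (−1.96, −1.21, −1.56 and −0.92, with adjusted p of at most 0.01). MTHFD1, its cytosolic relative, was lower with abemaciclib than with palbociclib in ZR-75-1 (−0.61, SE 0.13, adjusted p = 5e-04).

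In CAMA-1, 0 of 12 purine genes were higher with either drug (20.3% and 18.4% of all genes). Abemaciclib lowered 6 and palbociclib 5 (20.1% and 18.7% of all genes). PRPS2, which makes the ribose donor PRPP, was among them (−1.63 and −1.13), as was GMPS, which makes GMP (−0.98 and −0.93). In ZR-75-1, 4 of 13 purine genes were lower and 3 higher with abemaciclib (18.3% and 17.9% of all genes). With palbociclib 1 was lower and 2 higher, near the shares of all genes (13.4% and 14.5%). Of the 5 pyrimidine ring genes only CTPS1, a CTP synthase, was called against DMSO. It was lower under both drugs in CAMA-1 (−0.96 and −0.56), and under abemaciclib alone in ZR-75-1 (−0.96). These counts of 1 in 5 lie near the shares of all genes called lower (20.1%, 18.7% and 18.3%). Of 5 genes of pool cleaning and uracil removal, 1 rose with abemaciclib in CAMA-1 (20.3% of all genes). There 3 fell with each drug (20.1% and 18.7% of all genes). Those that fell included NUDT1, which hydrolyses oxidised purine triphosphates (−0.90 and −1.04), and NUDT5 (−0.92 and −0.78). In ZR-75-1 only the uracil glycosylase gene UNG was called, with abemaciclib (−0.54, adjusted p = 0.0017). This count of 1 in 5 lies near the 18.3% of all genes called lower. By the interaction test, 11 of 58 listed genes had the higher change in ZR-75-1 and 1 the lower with abemaciclib, where the shares of all genes were 8.19% and 10.0%. With palbociclib the counts were 12 and 1, against 10.0% and 10.3%. NUDT1 differed by 1.00 (adjusted p = 0.0015) and 1.34 (adjusted p = 1.1e-05), and NUDT5 by 0.99 (adjusted p = 7.2e-05) and 1.07 (adjusted p = 7.9e-06).

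Most nucleotide kinases were not called against DMSO. In ZR-75-1, 5 of 11 rose with abemaciclib and 4 with palbociclib, where 17.9% and 14.5% of all tested genes were higher, and 0 were lower with either. The largest rises were those of AK1, an adenylate kinase (1.18, adjusted p = 5.9e-06, and 0.96, adjusted p = 0.00027). In CAMA-1, 2 of 10 were higher and 1 lower with abemaciclib (20.3% and 20.1% of all genes), and 2 and 2 with palbociclib (18.4% and 18.7%). The mitochondrial thymidine kinase gene TK2 rose with abemaciclib in CAMA-1 (0.85, SE 0.29, adjusted p = 0.017) and was not called elsewhere (0.36 to 0.72). DGUOK, the mitochondrial deoxyguanosine kinase, was not called in any comparison against DMSO, with values of 0.02 to 0.19. Among the remaining roles, PNP, a purine nucleoside phosphorylase, was lower under both drugs in CAMA-1 (−1.28 and −1.25) and under abemaciclib in ZR-75-1 (−0.50), and the nucleoside transporter gene SLC29A2 fell with both in ZR-75-1 (−0.65 and −0.69). Of the reductase electron donors, TXNRD1 fell with abemaciclib in CAMA-1 (−0.56, adjusted p = 0.01) and GLRX rose with abemaciclib in ZR-75-1 (1.26, SE 0.46, adjusted p = 0.027). The GLRX call rests on few counts, 4 to 15 with DMSO and 12 to 25 with abemaciclib, and the groups overlapped in CPM. Between the drugs, 0 of 55 genes were called in CAMA-1, where 1.53% of all genes were lower and 0.796% higher with abemaciclib. In ZR-75-1, 5 of 58 were lower and 1 higher, against 7.94% and 5.23% of all genes.

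**Figure D5:**
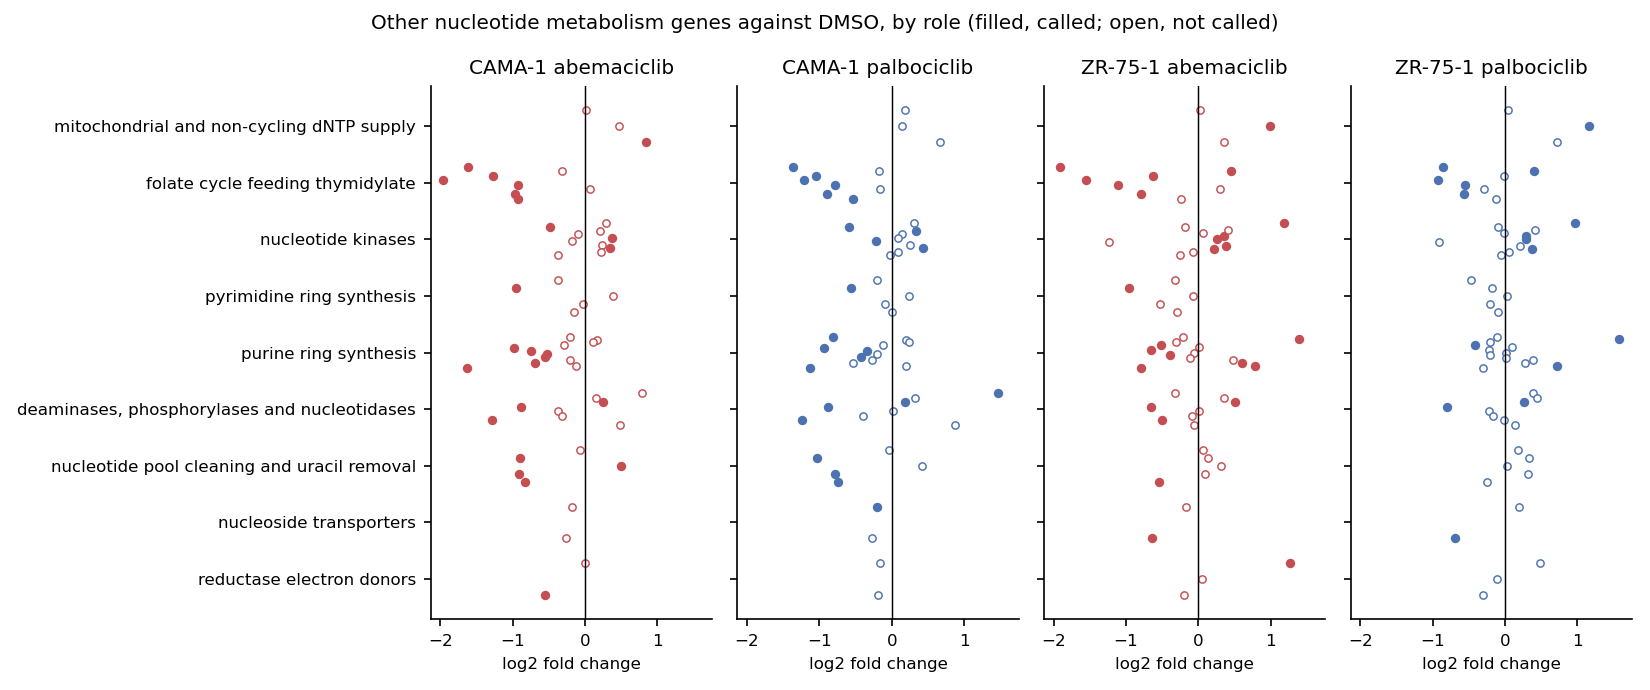
Each point is the log2 fold change against DMSO of 1 gene of nucleotide metabolism outside the 9 enzymes, in rows by role and in panels by line and drug, filled where called. The folate genes lie mostly left of 0 in all 4 panels, reaching −1.96 for MTHFD1L, whereas kinases called in ZR-75-1 lie to the right, up to 1.18 for AK1.

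Markers of cycling cells fell in the same libraries. All 5 of MKI67, TOP2A, PCNA, CCNB1 and BIRC5 were lower with each drug in each line. MKI67, the gene of the Ki-67 antigen, changed with abemaciclib by −3.27 in CAMA-1 and −5.88 in ZR-75-1 on the log2 scale, and with palbociclib by −2.40 and −1.36. PCNA, the replication clamp gene, changed by −2.54 and −2.04 with abemaciclib, and by −1.59 and −0.53 with palbociclib. In these bulk samples, fewer cells in S phase and less RNA for each such cell cannot be told apart. The part of the cycling fraction in the changes of the 9 enzymes was not tested.

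Genes with the pattern most like RRM2, TK1 and SAMHD1 were sought among 10124 genes tested in both lines, by the root mean square difference over the 4 log2 fold changes against DMSO, which share control libraries within a line. Nearest to RRM2 were SPC25, a kinetochore gene (0.32), MKI67 (0.54) and CNIH2 (0.71). In CAMA-1 SPC25 changed by −3.89 and −2.26 on the log2 scale with abemaciclib and palbociclib, and its ZR-75-1 values were −5.69 and −1.16. Nearest to TK1 were TCF19 (0.19), CDCA7 (0.32) and CDCA5, a cohesin regulator (0.36). In CAMA-1 TCF19 changed by −3.42 and −2.05, and its ZR-75-1 values were −1.89 and −0.46. Nearest to SAMHD1 were GTF2H2 (0.05), SLC38A6 (0.05) and POLR2I (0.07), whose values all lay within 1 log2 unit of 0.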

How the data were processed

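RNA was measured by QuantSeq in 18 libraries (2 lines, 3 treatments, 3 replicates). Read counts per gene were deposited by the authors, who trimmed reads with BBDuk, aligned them to hg38 with STAR 2.7.5b and counted them with featureCounts 2.0.1 on a GENCODE annotation (methods and the submitters' processing notes). The labels and the methods name different strand versions of the kit; use of strand, reads with several alignments and molecular identifiers are not given in the sources used here, so counting intervals cover counting error only and genes with an overlapping neighbour are less certain.

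The 9 genes and all gene lists were chosen with earlier results of these data known. Of 60656 rows, 60401 were matched to a symbol. Each line was fitted over its 9 libraries in edgeR 4.0.16 (R 4.3.3) with filterByExpr, TMM scaling and a quasi-likelihood F test, and p-values were adjusted by Benjamini-Hochberg over all 11053 or 11017 genes tested. A gene was called at an adjusted p under 0.05. Differences between lines used 1 fit of 18 libraries and 6 groups (11987 genes). Standard errors and 95% intervals were derived from the F statistic. Subunit ratios were compared on the log2 scale by exact permutation tests. The code was tested on simulated data. Named genes are the 9 members, at most 2 called genes of a pathway role with the largest log2 fold change in a comparison, RRM2B, TK2, DGUOK, proliferation markers, neighbours on the other strand and the 3 nearest patterns; ZNF771 was added after its overlap with DCTPP1 was seen, and some genes under this rule are not reported here.

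The study used DESeq2, which was run here as an alternative (1.42.0). Other alternatives were RLE, upper-quartile and library-total scaling, no filter, removal of mitochondrially encoded genes, pseudogene rows added to their parent, 1 fit of all libraries, a replicate block, and leaving out each library. Replicate numbers do not come with a stated pairing, and deviations of same-numbered libraries correlated at −0.06 to 0.02 within a line, so that they were not treated as pairs. No libraries of a group agreed within sampling noise (chi-square per degree of freedom 1.83 to 5.18), and all 18 were counted. Coordinates are from GENCODE release 44 on GRCh38, and promoter windows from RefSeq on GRCh38.p14.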

Additional observations from a re-analysis of the deposited data

Results flagged for a closer look

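For 7 of the 9 enzymes the response to palbociclib differed between the lines by the interaction test over 18 libraries (edgeR quasi-likelihood test, adjusted over all genes), where 10.0% of all genes were called higher in ZR-75-1 and 10.3% lower. Taking the ZR-75-1 log2 fold change less the CAMA-1 one, the values were 1.85 for TK1, 1.59 for RRM2, 1.48 for TYMS, 0.90 for DCTPP1, 0.72 for SAMHD1, 0.59 for DUT and 0.56 for RRM1. The SAMHD1 call was lost without the filter on low counts (adjusted p = 0.1) and in 5 fits that each left out a library. For abemaciclib, 4 enzymes differed, where 8.19% of all genes were called higher and 10.0% lower: RRM2 at −1.85 and TYMS at −1.45 fell further in ZR-75-1, TK1 at 1.27 fell further in CAMA-1, and DCTPP1 at 0.87 had opposite signs in the lines. Of the 5 markers of cycling cells, MKI67 (−2.64) and TOP2A (−1.79) were called lower in ZR-75-1 with abemaciclib, whereas PCNA (0.48), CCNB1 (−0.32) and BIRC5 (−0.26) were not called. With palbociclib all 5 were called higher in ZR-75-1, at 0.54 to 1.28. Their part in the differences of the enzymes was not tested. For the 9 enzymes each library was left out in turn, and no separate test for outlying libraries was made.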

How the results depend on the processing

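Of 81 values (9 genes in 9 comparisons), 59 kept their direction and their side of the threshold under all alternatives run, and 62 of 1296 alternative values did not. The number of called genes between the DMSO groups went from 3 to 5 with library totals only. When single libraries were left out, the number called with abemaciclib against DMSO was 9 in CAMA-1 and 7 to 9 in ZR-75-1. With palbociclib against DMSO it was 8 to 9 and 6 to 7. Between the drugs it was 2 to 3 in CAMA-1 and 5 in ZR-75-1, where all libraries gave 6. For the line difference it was 4 with abemaciclib and 6 to 8 with palbociclib. Values that changed sign were all uncalled: with library totals only, RRM1, DUT and DCTPP1 between the DMSO groups were −0.064, −0.108 and −0.074, and the line difference of RRM1 with abemaciclib was 0.111, or 0.009 without mitochondrially encoded genes. In fits that each left out a library, that RRM1 difference ran from −0.092 to 0.064, and with abemaciclib the line difference ran from −0.036 to 0.131 for DUT and from −0.078 to 0.357 for DCK. Between DMSO groups the ranges were −0.015 to 0.425 for DCK, −0.017 to 0.07 for DUT and −0.071 to 0.212 for DCTPP1. Abemaciclib against palbociclib ran from −0.125 to 0.005 for DCTPP1 in CAMA-1 and from −0.244 to 0.329 for DCK in ZR-75-1. A replicate block ended 1 call, TYMS between the DMSO groups (0.28, adjusted p = 0.22), and otherwise changed no call on the 9 genes; over all genes that comparison went from 7349 to 6133 calls, and abemaciclib in CAMA-1 from 4457 to 4357. For the subunit ratios the paired test allows no p below 0.25. DCK held 10 to 45 counts in a library and SAMHD1 33 to 127, and RRM2 with abemaciclib in ZR-75-1 rested on 2 to 4.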
